A study of Neurospora crassa with 84 samples.

Results

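The genes described here are 6 genes of the filamentous fungus Neurospora crassa. The carotenoid genes al-3 (NCU01427), al-2 (NCU00585), al-1 (NCU00552), cao-2 (NCU11424) and ylo-1 (NCU04013) encode enzymes that make the orange pigment of this fungus, and nop-1 (NCU10055) encodes an opsin. They were taken by gene identifier from the 10590 genes of the count table, and all 6 were among the 9701 genes with enough reads to be tested. Each had at least 30 counted fragments in every library.

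The carotenoid pathway starts from geranylgeranyl diphosphate, a prenyl chain supplied by the mevalonate pathway, and ends in neurosporaxanthin, an acidic apocarotenoid. AL-3 makes geranylgeranyl diphosphate, AL-2 joins the chains into phytoene and also closes the rings at the chain ends, AL-1 introduces the double bonds that give colour, CAO-2 cleaves torulene, and YLO-1 oxidizes the resulting aldehyde to neurosporaxanthin. Blue light sensed by the white collar photoreceptor complex is known to raise mRNA of the albino (al) genes in mycelium, and conidia, the asexual spores, are rich in carotenoid. NOP-1 is a membrane protein of the microbial rhodopsin type that binds retinal, itself a product of carotenoid cleavage.

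RNA was sequenced from tissue scraped off the surface of cultures on a crossing medium low in nitrogen, where the fungus forms protoperithecia, the unfertilized female organs. The females were a ∆ve-1 mat A strain, which lacks the velvet protein VE-1, and a wild type mat A strain, both labelled as OR74A, and each was kept in light or in dark before and after the cross. Tissue was taken on days -2, -1 and 0, ahead of the cross, and again on days 1, 2, 4 and 6, after conidia of a wild type mat a strain had been applied, so that tissue of both strains could hold wild type male cells from day 1 on. The 28 groups had 3 libraries each, 84 in all. ∆ve-1 was 1 deletion strain, and tissue of biological replicates had been pooled for RNA extraction, so that p-values measure the spread between these libraries, which may be partly technical. Days -2 to 0 are called before fertilization and days 1 to 6 after fertilization.

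Libraries held 14.53 to 18.38 M counted fragments (M for mega), with a median of 16.51 M. The deleted gene ve-1 had 101 to 281 counts in the ∆ve-1 libraries and 2272 to 11859 in the wild type libraries. The light-responsive gene vvd, which encodes the photoreceptor VIVID, had 1233 to 2996 CPM (counts per 1 M counted fragments) in ∆ve-1 in light, against 9.17 to 207 CPM in ∆ve-1 in dark, and 774 to 3407 CPM in wild type in light, against 7.79 to 75.6 CPM in wild type in dark. CPM values were scaled with the TMM method, and they are means over all hyphae, conidia, female organs and male cells in the scraped tissue. Fewer cells of a type and less RNA per cell cannot be told apart in such values.

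A pair of dark libraries stood apart for the carotenoid genes. In ∆ve-1 dark day -2 replicate 3, al-1 had 572 CPM (17.1 and 86.3 CPM in the other ∆ve-1 replicates of that day) and al-3 had 973 CPM (65.5 and 136 CPM). In wild type dark day -2 replicate 1, al-1 had 246 CPM (26.6 and 36.3 CPM in the others) and al-3 had 416 CPM (90.9 and 122 CPM). The hydrophobin gene eas, whose product coats the conidia, was high in both libraries, at 66000 CPM in the ∆ve-1 library and 22140 CPM in the wild type library, and so was fl, which encodes a transcription factor of conidiation, at 696 and 212 CPM in the same order. The vvd level in the ∆ve-1 library was 9.17 CPM and in the wild type library 14.8 CPM, both within the dark ranges given above. Other light-responsive genes differed from the remaining replicates. In the wild type library bli-4 was raised at 77 CPM (5.59 and 12.8 CPM in the others), and cry at 29.3 CPM (5.53 and 7.09 CPM). There frq was not raised, at 46.0 CPM (39.6 and 54.8 CPM). In the ∆ve-1 library vvd was below the 49.8 and 54.5 CPM of the others. So were cry, at 22.4 CPM (178 and 209 CPM), and bli-4, at 17.4 CPM (343 and 345 CPM). There sub-1 was higher, at 217.5 CPM (85.9 and 139 CPM). In the ∆ve-1 library nop-1 was at 163.5 CPM, below the 979 and 1099 CPM of the other replicates, and the conidiation gene con-6 was at 47.8 CPM, below 1749 and 2103 CPM. The al-1, al-3 and nop-1 contrasts of strain and of light that rest on these libraries are also given without one or both of them, a choice made after seeing the data. For al-3 in dark before fertilization, the log2 fold change of ∆ve-1 over wild type was -0.73 without the ∆ve-1 library, 0.25 without the wild type library and -0.42 without both, and in none of these fits was it called. Leaving out either library or both changed no call of al-2 or ylo-1 in the contrasts of strain and of light at each stage. For cao-2, light against dark in wild type after fertilization was no longer called without both libraries (log2 fold change 0.97). The other cao-2 calls in these contrasts were kept.

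In the RefSeq annotation of assembly NC12, al-2 (chromosome I, 7920916 to 7924255) and al-1 (chromosome I, 8029857 to 8032395) lay 105601 bp apart with 38 genes between them. The others were unlinked or far apart, with al-3 on chromosome V (4030155 to 4032913), ylo-1 on chromosome VI (2441355 to 2444495), cao-2 near the end of chromosome VII (2483 to 4931) and nop-1 on the same chromosome (1316548 to 1318623). The al-3 span overlapped 1 other gene, NCU01426, so that reads of an overlap on the same strand may have been assigned to either gene or to none. The other 5 genes overlapped none.

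**Figure D1:**
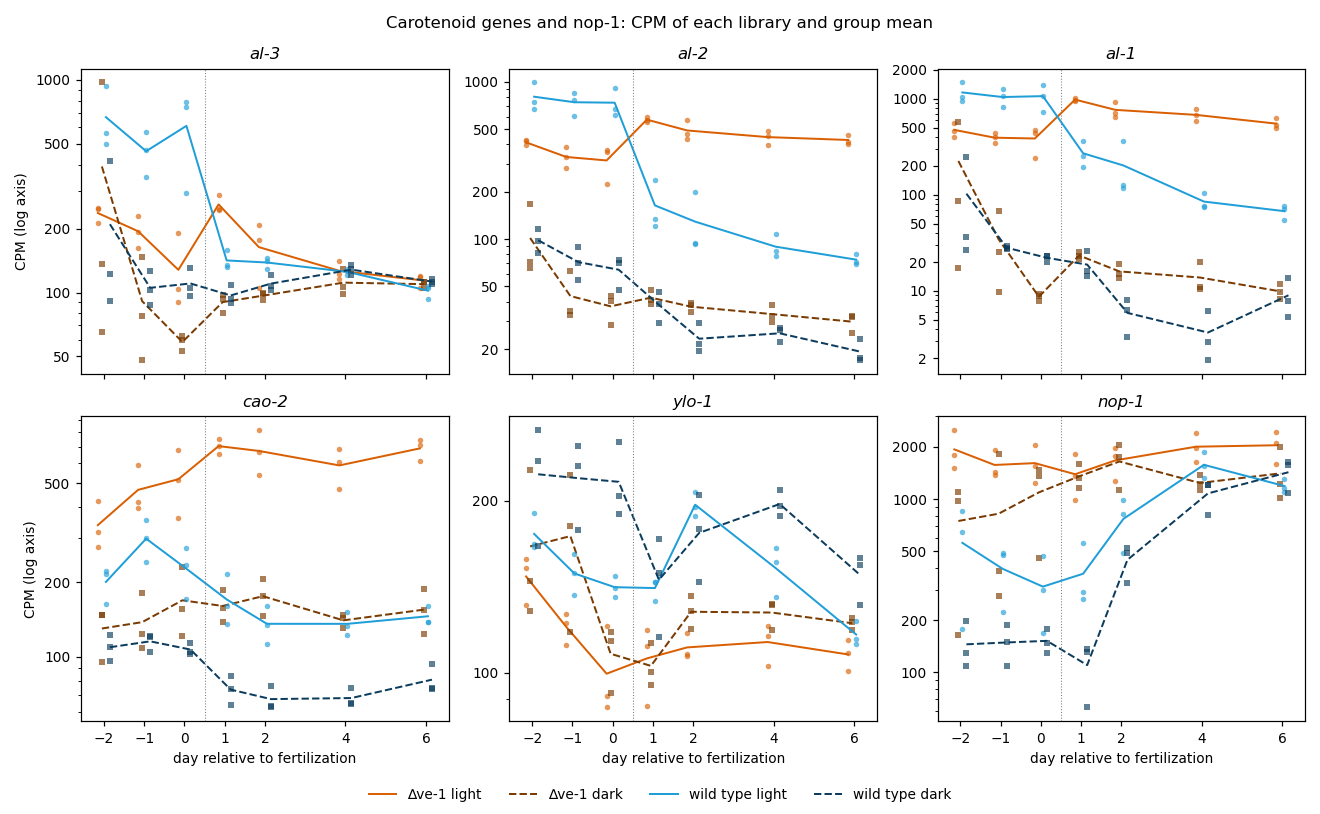
CPM (log axis) of al-3, al-2, al-1, cao-2, ylo-1 and nop-1 in each of the 84 libraries (points) by day relative to fertilization, with lines through the group means (n = 3). Orange and brown mark ∆ve-1 in light and in dark, pale and dark blue mark wild type in light and in dark, and the dotted line separates days before and after fertilization. In light, al-1 and al-2 of ∆ve-1 lie below wild type up to day 0 and above it from day 1.

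The main pattern concerned al-1 and al-2 in light. Before fertilization both genes were lower in ∆ve-1 than in wild type, and after fertilization both were higher in ∆ve-1. Wild type levels were low from day 1 on, and ∆ve-1 levels stayed high. The al-3 gene shared the first difference but not the second, cao-2 was higher in ∆ve-1 mainly after fertilization, nop-1 was higher in ∆ve-1 before fertilization and early after it, and ylo-1 changed little. A gene was called when its adjusted p from edgeR's quasi-likelihood test was under 0.05 (Benjamini-Hochberg over all genes tested) and its log2 fold change was beyond 1 in either direction.

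Geranylgeranyl diphosphate synthase, AL-3, supplies the pathway. In light before fertilization al-3 had 89.9 to 250 CPM in ∆ve-1 (median 193, n = 9) and 295 to 941 CPM in wild type (median 564, n = 9), with no overlap between the strains. The log2 fold change was -1.67 ± 0.25 (SE, edgeR adjusted p = 4.39e-08). On day 0 the values were 89.9, 104 and 190 CPM in ∆ve-1 and 743, 295 and 786 CPM in wild type. After fertilization in light the strains overlapped, with 105 to 287 CPM in ∆ve-1 (median 132, n = 12) and 93.7 to 158 CPM in wild type (median 129, n = 12), and the log2 fold change of 0.32 ± 0.21 did not pass the test (edgeR adjusted p = 0.156, 95% interval -0.10 to 0.75).

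Day 1 was also set against day 0 within each strain in light. In ∆ve-1 al-3 had 287, 247 and 245 CPM on day 1, against 89.9, 104 and 190 CPM on day 0, with a log2 fold change of 1.02 ± 0.43 that did not pass (edgeR adjusted p = 0.144). The ∆ve-1 value passed without ∆ve-1 dark day -2 replicate 3, which is in neither group but shares the estimate of spread (1.02, adjusted p = 0.0355). In wild type al-3 had 135, 158 and 131 CPM on day 1, against 743, 295 and 786 CPM on day 0, a called log2 fold change of -2.10 ± 0.44 (edgeR adjusted p = 8.21e-05). From day 1 to day 6 al-3 fell in ∆ve-1 in light, to 118, 120 and 105 CPM on day 6 (log2 fold change -1.18 ± 0.43, edgeR adjusted p = 0.0379), although this call was lost without replicate 1 (-1.11, adjusted p = 0.102) or replicate 2 (-1.25, adjusted p = 0.207). By day 6 all 4 groups lay between 93.7 and 120 CPM.

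The response of al-3 to light was called in wild type before fertilization. In ∆ve-1 before fertilization it had 89.9 to 250 CPM in light and 48.3 to 973 CPM in dark. There the log2 fold change was 0.50 ± 0.25 (edgeR adjusted p = 0.0851), but without the library of 973 CPM the dark values ended at 147 CPM and the log2 fold change was 1.15 (adjusted p = 1.76e-06). In wild type before fertilization it had 295 to 941 CPM in light and 87.0 to 416 CPM in dark, the highest dark value being that of replicate 1 on day -2, and the log2 fold change was 2.09 ± 0.26 (edgeR adjusted p = 2.93e-10), or 2.42 (adjusted p = 3.26e-12) without that library. After fertilization light and dark differed by 0.63 ± 0.21 in ∆ve-1 and 0.18 ± 0.21 in wild type on the log2 scale (edgeR adjusted p = 0.00748 and 0.544), neither of them past the fold threshold.

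AL-2 carries out the first step that is committed to carotenoids. In light before fertilization al-2 had 223 to 423 CPM in ∆ve-1 (median 368, n = 9) and 602 to 988 CPM in wild type (median 747, n = 9). After fertilization it had 398 to 596 CPM in ∆ve-1 (median 461, n = 12) and 69.4 to 236 CPM in wild type (median 93.6, n = 12). The strains did not overlap at either stage, and their order was reversed between the stages. The log2 fold change of ∆ve-1 against wild type was -1.11 ± 0.15 before (edgeR adjusted p = 3.46e-09) and 2.14 ± 0.14 after fertilization (edgeR adjusted p = 8.44e-22), the second being 4.42-fold.

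This reversal fell between day 0 and day 1. ∆ve-1 in light had 574, 596 and 551 CPM of al-2 on day 1, against 368, 356 and 223 CPM on day 0 (0.86 ± 0.26, edgeR adjusted p = 0.034, under the fold threshold), and wild type in light had 120, 236 and 134 CPM on day 1, against 915, 618 and 671 CPM on day 0, a log2 fold change of -2.17 ± 0.27 (edgeR adjusted p = 1.38e-09). On day 6 ∆ve-1 in light was at 414, 461 and 403 CPM, and the change from day 1 did not pass the test (-0.43 ± 0.26, edgeR adjusted p = 0.235). Wild type in light was at 80.6, 69.4 and 71.9 CPM on day 6, a further change of -1.14 ± 0.26 from day 1 (edgeR adjusted p = 0.000203), and this call was lost without replicate 2 (-0.74, adjusted p = 0.0608).

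In dark, al-2 was low in both strains. It had 28.5 to 168 CPM in ∆ve-1 and 47.5 to 116 CPM in wild type before fertilization, and 25.3 to 47.7 CPM in ∆ve-1 and 17.1 to 46.3 CPM in wild type after it. The strain difference in dark was -0.48 ± 0.15 before and 0.47 ± 0.13 after fertilization on the log2 scale, under the fold threshold at both stages (edgeR adjusted p = 0.00476 and 0.00176). Light against dark was called in every comparison of stages, with log2 fold changes of 2.68 ± 0.16 before and 3.76 ± 0.15 after fertilization in ∆ve-1, and of 3.31 ± 0.16 before and 2.08 ± 0.14 after in wild type (edgeR adjusted p from 1.86e-31 to 4.71e-21 in ∆ve-1, and 7.4e-25 and 4.63e-19 in wild type).

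AL-1, the phytoene desaturase, had the widest range of the 6 genes. Its highest group mean was 1164 CPM, in wild type in light on day -2, and its lowest 3.70 CPM, in wild type in dark on day 4, a ratio of 315, against ratios of 41.6 for al-2, 18.5 for nop-1, 11.4 for al-3, 10.4 for cao-2 and 2.24 for ylo-1. Before fertilization in light al-1 had 244 to 556 CPM in ∆ve-1 (median 438, n = 9) and 726 to 1480 CPM in wild type (median 1057, n = 9). After fertilization it had 494 to 1028 CPM in ∆ve-1 (median 692, n = 12) and 55.0 to 364 CPM in wild type (median 112, n = 12). As for al-2, the strains did not overlap at either stage and changed order, with log2 fold changes of -1.39 ± 0.33 before (edgeR adjusted p = 0.000207) and 2.45 ± 0.30 after fertilization (edgeR adjusted p = 6.89e-11), the second being 5.47-fold.

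∆ve-1 in light had 953, 1028 and 961 CPM of al-1 on day 1, against 474, 441 and 244 CPM on day 0, and the log2 fold change of 1.34 ± 0.58 did not pass (edgeR adjusted p = 0.154), but did without both libraries that stood apart (1.34, adjusted p = 0.0323). The 3 day 1 libraries of ∆ve-1 all lay above the 3 of day 0. Wild type in light had 194, 364 and 256 CPM on day 1, against 1398, 726 and 1074 CPM on day 0 (log2 fold change -1.98 ± 0.59, edgeR adjusted p = 0.00474). It had 76.7, 71.3 and 55.0 CPM on day 6, a further change of -2.0008 ± 0.59 from day 1 (edgeR adjusted p = 0.00313) that was lost without replicate 2 (-1.77, adjusted p = 0.066).

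In dark al-1 was low apart from these libraries. Before fertilization it had 7.93 to 572 CPM in ∆ve-1 (median 17.1) and 20.1 to 246 CPM in wild type (median 27.2), and without the libraries that stood apart the maxima were 86.3 CPM in ∆ve-1 and 36.3 CPM in wild type. The log2 fold change between strains was 0.03 ± 0.34 (edgeR adjusted p = 0.98), and it was -0.68 (adjusted p = 0.0409) without the ∆ve-1 library alone, 0.60 without the wild type library alone and -0.13 (adjusted p = 0.681) without both. After fertilization it had 8.30 to 25.7 CPM in ∆ve-1 and 1.93 to 25.9 CPM in wild type, a log2 fold change of 0.94 ± 0.30 that stayed under the fold threshold (edgeR adjusted p = 0.00523) and passed it without replicate 2 (1.29, adjusted p = 0.0081).

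Light against dark gave the largest fold changes among the 6 genes for al-1. In ∆ve-1 the log2 fold change was 3.35 ± 0.36 before fertilization (edgeR adjusted p = 1.58e-11), or 4.06 (adjusted p = 6.7e-15) without the dark library of 572 CPM, and 5.60 ± 0.35 after fertilization (edgeR adjusted p = 8.46e-22), the last being 48.4-fold. In wild type it was 4.77 ± 0.38 before (edgeR adjusted p = 2.22e-16), or 5.33 (adjusted p = 1.16e-17) without the dark library of 246 CPM, and 4.09 ± 0.33 after fertilization (edgeR adjusted p = 1.53e-15). On day -2 alone light and dark overlapped in ∆ve-1, at 556, 467 and 401 CPM in light and 17.1, 86.3 and 572 CPM in dark, and the gene was not called (1.08, edgeR adjusted p = 0.161).

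CAO-2, which cleaves torulene, was higher in ∆ve-1 in light at both stages. Before fertilization in light cao-2 had 276 to 680 CPM in ∆ve-1 (median 419, n = 9) and 164 to 356 CPM in wild type (median 234, n = 9), overlapping ranges with a log2 fold change of 0.87 ± 0.12 (edgeR adjusted p = 9.44e-09) that stayed under the fold threshold. After fertilization it had 472 to 818 CPM in ∆ve-1 (median 678, n = 12) and 113 to 216 CPM in wild type (median 138, n = 12), with no overlap, a log2 fold change of 2.18 ± 0.11 or 4.53-fold (edgeR adjusted p = 3.03e-26). Unlike al-1 and al-2, cao-2 in ∆ve-1 in light lay above wild type on each of the 7 days without overlap.

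In dark after fertilization cao-2 had 123.3 to 205 CPM in ∆ve-1 and 62.7 to 93.5 CPM in wild type, a log2 fold change of 1.12 ± 0.11 (edgeR adjusted p = 9.36e-14), which was 1.00 and no longer called without replicate 1. Before fertilization in dark it had 95.4 to 230 CPM in ∆ve-1 and 96.3 to 122 CPM in wild type (0.39 ± 0.12, edgeR adjusted p = 0.0049). Light raised cao-2 in ∆ve-1 by 1.59 ± 0.13 before and 2.08 ± 0.11 after fertilization on the log2 scale (edgeR adjusted p = 2.7e-16 and 5.86e-25) and in wild type by 1.11 ± 0.12 and 1.01 ± 0.11 (edgeR adjusted p = 2.16e-11 and 2.33e-11). The last value sat at the fold threshold, and it was between 0.95 and 1.00 and not called with upper-quartile scaling, with no filter on low counts, without replicate 1 or 3, and without both libraries that stood apart.

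YLO-1, the aldehyde dehydrogenase of the last step, had the narrowest range. It had 86.9 to 158 CPM in ∆ve-1 and 135 to 191 CPM in wild type in light before fertilization, and 87.4 to 121 CPM in ∆ve-1 and 112 to 208 CPM in wild type in light after it. All 4 strain contrasts were below 0, from -0.59 to -0.35 on the log2 scale (edgeR adjusted p from 2.21e-07 to 0.000719), and none reached the fold threshold. Of the 28 single-day contrasts, 1 was called, that of ∆ve-1 against wild type in dark on day 0, with 118, 114 and 92.1 CPM in ∆ve-1 and 204, 190 and 254 CPM in wild type (-1.0016, edgeR adjusted p = 1.27e-06). Light against dark was -0.27 ± 0.09 before and -0.13 ± 0.08 after fertilization in ∆ve-1, and -0.51 ± 0.09 before and -0.15 ± 0.08 after in wild type on the log2 scale, none of them past the fold threshold.

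The opsin gene nop-1 followed another course. In light before fertilization it had 1234 to 2500 CPM in ∆ve-1 (median 1556, n = 9) and 170 to 852 CPM in wild type (median 468, n = 9), with no overlap and a log2 fold change of 2.05 ± 0.29 or 4.14-fold (edgeR adjusted p = 5.79e-09). In dark before fertilization it had 163.5 to 1809 CPM in ∆ve-1 (median 979) and 108 to 197 CPM in wild type (median 147.5), a log2 fold change of 2.56 ± 0.29 (edgeR adjusted p = 2.1e-11). The lowest ∆ve-1 value there was that of the library that stood apart, and without it the ∆ve-1 values were 274 to 1809 CPM, all above wild type, and the log2 fold change was 2.72 (adjusted p = 3.3e-13).

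In wild type nop-1 was higher on day 6 than on day 1 in light and in dark. In dark on day 6 its values overlapped those of ∆ve-1, while in light all 3 ∆ve-1 libraries were still higher, at 2443, 2095 and 1589 CPM in ∆ve-1 and 1311, 1095 and 1160 CPM in wild type. ∆ve-1 had 1988, 1222 and 1008 CPM of nop-1 in dark on day 6, against 1314, 1590 and 1151 CPM on day 1, and the day 6 against day 1 contrast did not pass in dark (0.06 ± 0.48, edgeR adjusted p = 0.948) or in light (0.56 ± 0.48, edgeR adjusted p = 0.431). In dark wild type had 136, 131.5 and 62.9 CPM on day 1, 523, 329 and 486 CPM on day 2, 1210, 1211 and 811 CPM on day 4 and 1631, 1081 and 1571 CPM on day 6, and day 6 against day 1 gave a log2 fold change of 3.69 ± 0.53 (edgeR adjusted p = 2.74e-08). In light wild type had 291, 556 and 266 CPM on day 1, below its day 6 values (1.68 ± 0.49, edgeR adjusted p = 0.00275).

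Over days 1 to 6 nop-1 was still higher in ∆ve-1, by 1.04 ± 0.24 in light (edgeR adjusted p = 9.37e-05) and 1.42 ± 0.24 in dark (edgeR adjusted p = 8.15e-07) on the log2 scale. The first value was 0.85 and not called without replicate 1. On single days nop-1 was called higher in ∆ve-1 on all days from -2 to 2 in light and in dark and not on days 4 and 6, where the log2 fold changes were 0.35 and 0.78 in light and 0.20 and -0.02 in dark. Light against dark was called for nop-1 in wild type before fertilization, with 170 to 852 CPM in light and 108 to 197 CPM in dark (1.46 ± 0.28, edgeR adjusted p = 9.67e-06, or 1.56 without wild type dark day -2 replicate 1). It was 0.96 ± 0.28 in ∆ve-1 before fertilization, just under the fold threshold (edgeR adjusted p = 0.00312), and passed it without replicate 1 (1.39) and with a term for the replicate number (1.01), and was 0.80 without ∆ve-1 dark day -2 replicate 3.

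**Figure D2:**
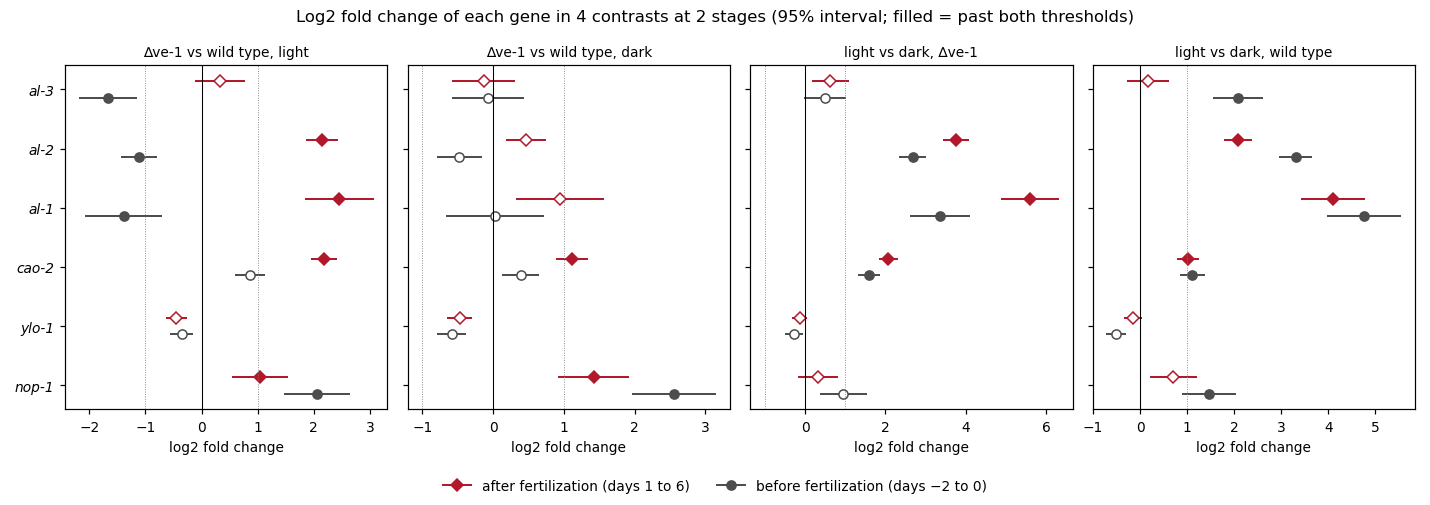
Log2 fold change with its 95% interval for each gene, with ∆ve-1 over wild type in the left pair of panels and light over dark in the right pair, after fertilization (diamonds) and before it (circles). Filled symbols passed an adjusted p of 0.05 and a log2 fold change of 1 in either direction. In light, al-1 and al-2 have strain differences of opposite sign at the 2 stages.

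Counted over the 6 genes, ∆ve-1 against wild type in light before fertilization gave 1 gene called higher (nop-1) and 3 called lower (al-1, al-2 and al-3), against a background over all tested genes of 11.6% higher and 10.8% lower. After fertilization in light 4 genes were called higher (al-1, al-2, cao-2 and nop-1) and 0 lower, against 12.5% and 20.5% of all tested genes. In dark nop-1 alone was called higher before fertilization, with a background of 11.3% higher and 9.38% lower, and cao-2 and nop-1 were called higher after it, with a background of 9.7% higher and 6.72% lower. With 6 genes these shares are a description and carry no test of the group.

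For light against dark, 3 genes were called higher in light in ∆ve-1 before fertilization (al-1, al-2 and cao-2) and the same 3 after it. The background over all tested genes was 3.79% higher and 6.59% lower in light before fertilization, and 4.84% higher and 14.7% lower after it. In wild type 5 genes were called higher in light before fertilization, all but ylo-1, where 7.03% of all genes were higher and 8.62% lower, and 3 were called after it (al-1, al-2 and cao-2), where 7.17% were higher and 0.67% lower. The median log2 fold change of the 6 genes was 1.27 before and 1.35 after fertilization in ∆ve-1 and 1.78 before and 0.86 after in wild type. Over all tested genes these medians lay between -0.0026 and 0.0376. None of the 6 was called lower in light in either strain.

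The difference between strains in the response to light was tested as an interaction, the light effect in ∆ve-1 minus that in wild type. After fertilization 3 genes had a larger light effect in ∆ve-1, with log2 interaction values of 1.68 ± 0.19 for al-2 (edgeR adjusted p = 2.67e-11), 1.06 ± 0.15 for cao-2 (edgeR adjusted p = 2.67e-08) and 1.51 ± 0.42 for al-1 (edgeR adjusted p = 0.00217), where 1.75% of all tested genes were called above 0 and 15.4% below. Without replicate 2 the values were 1.15 for al-1 (adjusted p = 0.115) and 1.00 for cao-2 and only al-2 was called. Before fertilization al-1 (-1.41 ± 0.47, edgeR adjusted p = 0.0127) and al-3 (-1.59 ± 0.35, edgeR adjusted p = 0.000217) had a smaller light effect in ∆ve-1, where 4.87% of all tested genes were called above 0 and 6.37% below. The al-1 call was lost without replicate 2 (-1.23, adjusted p = 0.149), and both calls were lost without replicate 3 (-0.34 for al-1 and -0.66 for al-3). Both were also lost without ∆ve-1 dark day -2 replicate 3 alone, when the values were -0.71 for al-1 (adjusted p = 0.166) and -0.94 for al-3 (adjusted p = 0.00338, under the fold threshold). Without wild type dark day -2 replicate 1 alone both were called, at -1.98 for al-1 and -1.92 for al-3. Without both libraries that stood apart both were called, at -1.20 for al-1 (edgeR adjusted p = 0.00483) and -1.20 for al-3 (edgeR adjusted p = 1.63e-05).

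The change of the strain difference from before to after fertilization was tested in the same way, a contrast chosen after the levels had been seen. In light it was 3.84 ± 0.45 for al-1 (edgeR adjusted p = 1.07e-10), 3.26 ± 0.20 for al-2 (edgeR adjusted p = 6.58e-21), 1.99 ± 0.33 for al-3 (edgeR adjusted p = 7.1e-07) and 1.31 ± 0.16 for cao-2 (edgeR adjusted p = 6.33e-10) on the log2 scale, and 18.6% of all tested genes were called in either direction. For nop-1 it was -1.01 ± 0.36 (edgeR adjusted p = 0.0161), which was no longer called without replicate 2 (-0.90, adjusted p = 0.177), without replicate 3 (-0.80, adjusted p = 0.0613) or with upper-quartile scaling (-0.9995). In dark nop-1 was the 1 gene called (-1.14 ± 0.36, edgeR adjusted p = 0.00968), with 12.5% of all genes called, and this call was lost without replicate 1 (-0.81, adjusted p = 0.164) or replicate 2 (-1.15, adjusted p = 0.0988). Without ∆ve-1 dark day -2 replicate 3, al-1 (1.62) and al-2 (1.14) were called in dark as well.

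The steps in time counted fewer genes. For day 1 against day 0, 0 genes were called in ∆ve-1 in light (2.73% of all genes called in either direction) and in ∆ve-1 in dark (11.1%), 3 in wild type in light (al-1, al-2 and al-3, all lower on day 1, 21.9%) and 0 in wild type in dark (13.2%). Beside these 3 counts of 0 from edgeR, 4 genes in ∆ve-1 in light, 1 in ∆ve-1 in dark and 3 in wild type in dark had an unadjusted p under 0.05, and with the adjusted p alone 1 gene (al-2) passed in ∆ve-1 in light and 3 (al-2, cao-2 and ylo-1) in wild type in dark. The shares of all tested genes under these looser rules were not counted, so the counts have no background beside them. DESeq2 called 0 genes in ∆ve-1 in light and in wild type in dark, and called al-1 in ∆ve-1 in dark (1.45, adjusted p = 0.0448), as did edgeR without both libraries that stood apart (1.45, adjusted p = 0.00859). For day 6 against day 1, 1 gene was called in ∆ve-1 in light (al-3 lower, 6.39% of all genes), 0 in ∆ve-1 in dark (11.5%), 3 in wild type in light (al-1 and al-2 lower, nop-1 higher, 27.2%) and 1 in wild type in dark (nop-1 higher, 26.3%). In ∆ve-1 in dark 1 gene (al-1) had an unadjusted p under 0.05 and DESeq2 called 0.

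**Figure D3:**
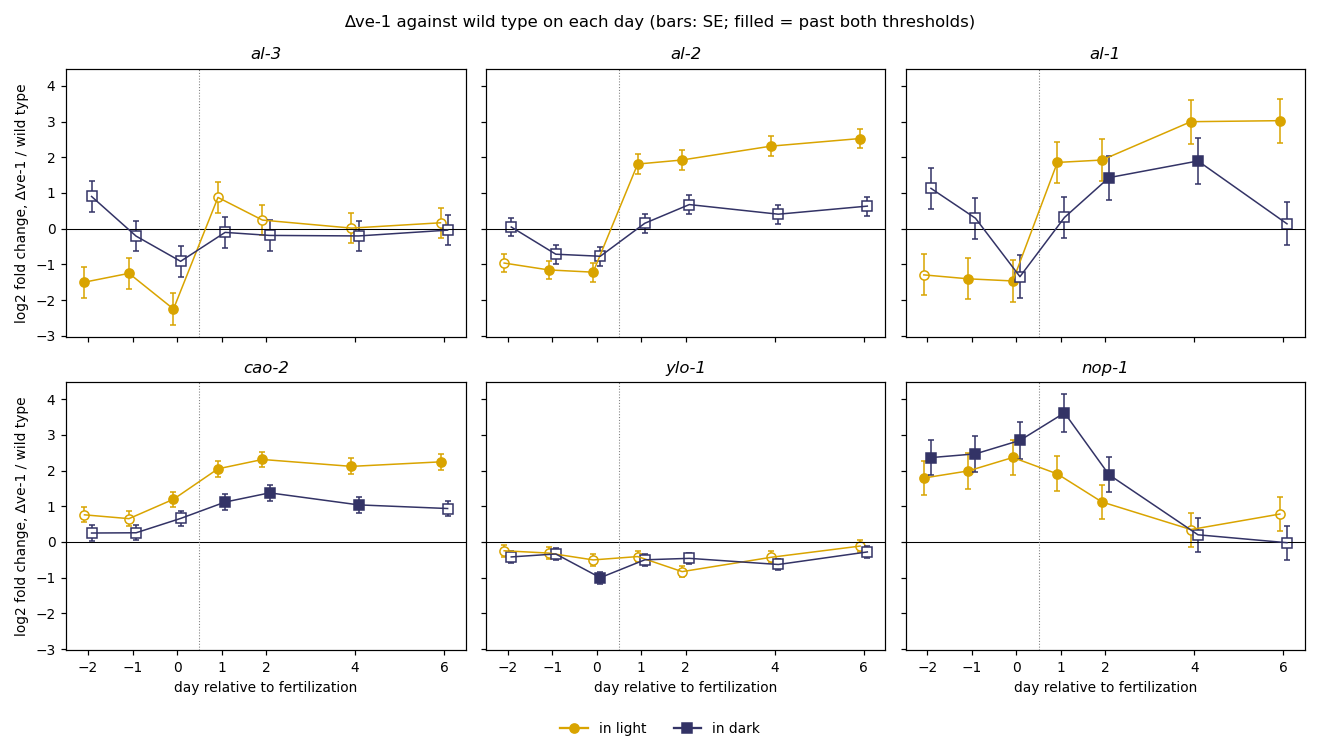
Log2 fold change of ∆ve-1 over wild type on each day, in light (circles) and in dark (squares), with bars for the standard error and filled symbols for genes past both thresholds. For al-1 and al-2 in light the values lie below 0 up to day 0 and above 0 from day 1, while nop-1 falls towards 0 on days 4 and 6.

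Day by day, ∆ve-1 against wild type in light was called lower for al-1 and al-2 on days -1 and 0 and higher on days 1, 2, 4 and 6. For al-1 the log2 fold change was -1.46 on day 0, 1.86 on day 1 and 3.03 on day 6, and for al-2 it was -1.22 on day 0, 1.81 on day 1 and 2.53 on day 6. For al-3 it was called lower on days -2, -1 and 0 (-2.25 on day 0) and not afterwards (0.88 on day 1, edgeR adjusted p = 0.07). The cao-2 gene was called higher on days 0 to 6 in light, with values from 1.20 to 2.31, and on days 1, 2 and 4 in dark. Over days -2, -1, 0, 1, 2, 4 and 6, the share of all tested genes called in light was 21.3%, 20.3%, 21.7%, 32.2%, 34.3%, 33% and 36.9%, and in dark 20.6%, 18.7%, 20.5%, 18.5%, 21.9%, 15.5% and 17.9%. In dark al-1 was called higher in ∆ve-1 on day 2 (1.43, edgeR adjusted p = 0.0478) and day 4 (1.90, edgeR adjusted p = 0.0151), when wild type had 3.36, 6.34 and 8.04 CPM and 1.93, 6.24 and 2.92 CPM.

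Light against dark was called on each of the 7 days for al-2 in both strains, for al-1 in wild type and for cao-2 in ∆ve-1, and on 6 days for al-1 in ∆ve-1, all but day -2. The share of all tested genes called over the same days was 9.15%, 10.1%, 9.28%, 14.6%, 14.8%, 19.8% and 24.3% in ∆ve-1, and 12.6%, 14.8%, 18.2%, 8.56%, 3.67%, 9.54% and 4.15% in wild type. For al-3 the days called were 1 in ∆ve-1 (day 1, 1.53, edgeR adjusted p = 0.00445) and 3 in wild type (days -2, -1 and 0, with log2 fold changes of 1.67, 2.14 and 2.46). For nop-1 they were 1 in ∆ve-1 (day -2) and 3 in wild type (days -2, -1 and 1), and for ylo-1 0 in both strains. In wild type al-1 on day 6 still had 76.7, 71.3 and 55.0 CPM in light, against 5.36, 13.8 and 7.91 CPM in dark.

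A quadratic fit over the 7 days, with calls made below an adjusted p of 0.001 where the fitted curves lay more than 1 apart on the log2 scale on some sampled day, separated ∆ve-1 from wild type in light for 5 genes, all but ylo-1, where 49.1% of all tested genes were called. In dark it separated 2 genes, cao-2 and nop-1 (28.9% of all genes). Light and dark were separated in ∆ve-1 for 3 genes, al-1, al-2 and cao-2 (27.9% of all genes), and in wild type for 5, all but ylo-1 (14.1% of all genes), a count that was 3 without replicate 2. For ylo-1 the strain terms had adjusted p = 4.58e-07 in light and 1.12e-05 in dark from the edgeR fit, with largest fitted differences of 0.61 and 0.69 on the log2 scale, under the threshold.

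Levels of different genes were compared only per kb of annotated gene span, introns included, as mean CPM per kb. In light before fertilization the order in ∆ve-1 was nop-1 (821), cao-2 (181), al-1 (165), al-2 (106), al-3 (67.5) and ylo-1 (39.0), and in wild type al-1 (430), al-2 (227), al-3 (210), nop-1 (203), cao-2 (98.8) and ylo-1 (49.4). In dark after fertilization it was nop-1 (679), cao-2 (64.4), ylo-1 (38.2), al-3 (36.9), al-2 (10.7) and al-1 (6.22) in ∆ve-1, and nop-1 (369), ylo-1 (53.1), al-3 (40.6), cao-2 (29.7), al-2 (7.93) and al-1 (3.69) in wild type. Per kb, al-1 thus had the highest level of the 6 genes in wild type in light before fertilization and the lowest in dark after it.

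Within each gene, most neighbours in the order of the 28 group means could not be separated by their ranges. Of the 27 pairs of neighbours, 27 overlapped for nop-1 and ylo-1, 26 for cao-2 and 25 for each of al-1, al-2 and al-3. For al-1 and al-2 the 3 highest groups were wild type in light on days -2, -1 and 0, followed by ∆ve-1 in light on day 1 (981 CPM for al-1 and 574 CPM for al-2). The 4 highest groups of cao-2 were ∆ve-1 in light on days 1, 6, 2 and 4 (589 to 705 CPM). The 3 highest groups of ylo-1 were wild type in dark on days -2, -1 and 0 (216 to 223 CPM), and the lowest was ∆ve-1 in light on day 0 (99.5 CPM).

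Likeness between genes was described as Pearson's r of log2(mean CPM + 1) over the 28 group means, which share strains, light conditions and days and are not independent. The al-1 and al-2 genes had r = 0.975 with each other, while al-3 had 0.71 with al-1 and 0.709 with al-2, and cao-2 had 0.772 with al-1 and 0.799 with al-2. The nop-1 gene had 0.127 with al-1, 0.111 with al-2 and 0.517 with cao-2, and ylo-1 had negative values with al-1, al-2, cao-2 and nop-1 (-0.241, -0.245, -0.653 and -0.67). Outside the 6 genes, the nearest to al-1 and al-2 were mig-3 (NCU04452; r = 0.954 with al-1 and 0.975 with al-2) and NCU07434 (0.939 and 0.928). The nearest to cao-2 were mig-12 (NCU09830; 0.96), NCU07585 (0.952) and crf5-1 (NCU06306; 0.952), those to al-3 were NCU06010 (0.939), NCU00717 (0.918) and NCU05626 (0.913), those to ylo-1 were NCU05829 (0.902), NCU07167 (0.898) and NCU09682 (0.893), and those to nop-1 were NCU08166 (0.943), NCU05071 (0.943) and NCU03462 (0.941).

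Genes that feed the pathway were called in some of the strain contrasts. Of 6 genes of mevalonate and prenyl supply, 0 were called in ∆ve-1 against wild type in dark after fertilization. In the other strain contrasts those called were lower in ∆ve-1, with 2 in light before fertilization, 1 in light after it and 1 in dark before it. Over all tested genes 10.8%, 20.5% and 9.38% were called lower in these contrasts, in the same order. The gene erg-13, which encodes HMG-CoA synthase, was at -1.73 in light and -2.17 in dark before fertilization on the log2 scale (edgeR adjusted p = 3.84e-12 and 2.28e-15). The gene erg-20, which encodes farnesyl diphosphate synthase, was at -1.07 in light after fertilization (edgeR adjusted p = 1.07e-17). Between light and dark, 1 of the 24 values of this list over strains and stages was called. It was higher in light in wild type before fertilization, where 7.03% of all tested genes were called higher. The median log2 fold change of the list in ∆ve-1 against wild type was between -0.79 and -0.49, while over all tested genes it was between -0.05 and 0.04.

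Over all tested genes, 10.8% were called lower in ∆ve-1 in light before and 20.5% after fertilization, and 9.38% and 6.72% in dark. Of 9 genes of the ergosterol branch, which draws on the same prenyl supply, 4 were called lower in ∆ve-1 in light before fertilization and 3 in each of the other strain contrasts, and 0 were called higher. Among them erg-11 (sterol 14-demethylase) had -1.31 in light before and -1.04 after fertilization and -1.51 in dark before and -1.18 after (edgeR adjusted p from 2.32e-14 to 1.46e-11). None of the 9 was called between light and dark in either strain at either stage by edgeR. The relative of cao-2, cao-1 (NCU07008), was lower in ∆ve-1 before fertilization (-2.38 in light, -2.13 in dark, edgeR adjusted p = 3.53e-14 and 2.23e-13). It was also called lower in light than in dark in both strains at both stages, from -1.63 to -1.03 on the log2 scale, where cao-2 was higher in light.

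Genes of light sensing were set beside these. Of 7 genes, wc-1 and wc-2 (the white collar proteins), vvd, dcc-1, phy-1, phy-2 (phytochromes) and cry (cryptochrome), 3 were called higher in ∆ve-1 in light after fertilization (wc-1 1.83, cry 1.76 and dcc-1 1.54 on the log2 scale) and phy-2 was called lower (-2.56). Before fertilization in light 0 were higher by edgeR and phy-2 was lower (-1.08). In dark 3 of the 7 were called higher and phy-2 lower in ∆ve-1 at each stage. Those higher were vvd (2.06), cry (3.95) and dcc-1 (1.17) before fertilization and vvd (2.79), cry (2.66) and wc-1 (1.55) after it, while al-1 and al-2 were not called in dark. The called values had edgeR adjusted p of 6.13e-09 or less. The background in light was 11.6% higher and 10.8% lower before fertilization, and 12.5% higher and 20.5% lower after it. In dark it was 11.3% higher and 9.38% lower before fertilization, and 9.7% higher and 6.72% lower after it.

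**Figure D4:**
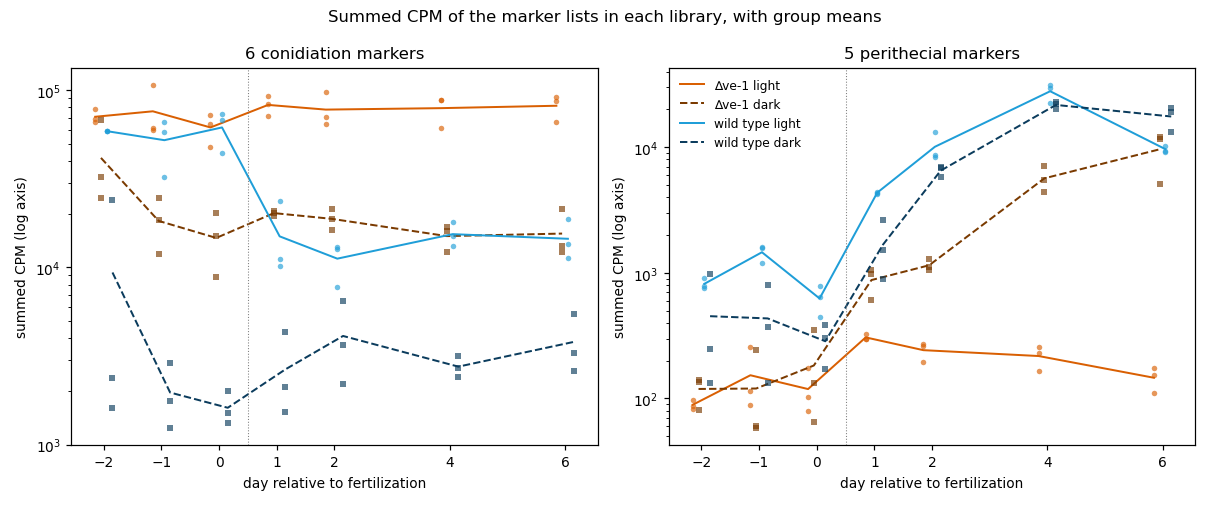
Summed CPM (log axis) of the 6 conidiation markers (left) and the 5 perithecial markers (right) in each library by day, with lines through the group means and the colours of the plot of levels. In light, the conidiation sum in wild type is lower after fertilization than before it, while in ∆ve-1 it stays high and the perithecial sum stays low. The sums are not weighted, and on day 0 in wild type in light most of the conidiation sum is eas.

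Markers of conidia and of perithecia also differed between the strains. Of 6 conidiation markers, 3 (con-6, con-8 and con-10) were called higher in ∆ve-1 in light before fertilization. At that stage 1 (eas, -1.01, edgeR adjusted p = 0.0414) was called lower. After fertilization in light 5 were called higher and 1 (cgl-1) lower. The background in light was 11.6% higher and 10.8% lower before fertilization, and 12.5% higher and 20.5% lower after it. In dark 5 of the 6 markers were called higher in ∆ve-1 at each stage, against 11.3% of all tested genes before fertilization and 9.7% after it. The 6 markers had list medians in dark of 2.95 before and 3.05 after fertilization on the log2 scale. Their summed level in light after fertilization was 61310 to 98000 CPM in ∆ve-1 and 7755 to 23540 CPM in wild type, and before fertilization 48050 to 107400 CPM in ∆ve-1 and 32500 to 73170 CPM in wild type. In dark the sum was 12160 to 21270 CPM in ∆ve-1 and 1527 to 6480 CPM in wild type after fertilization, and 8841 to 67500 CPM in ∆ve-1 and 1246 to 24090 CPM in wild type before it. These sums were not weighted, and on day 0 in wild type in light they were mostly eas. No conidiation marker was at 0 in any library. Their part in the differences of the carotenoid genes and nop-1 was not tested.

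Of 5 perithecial markers, 4 were called lower in ∆ve-1 in light at each stage and 3 in dark at each stage. Over all tested genes, 10.8% were called lower in light before and 20.5% after fertilization, and 9.38% and 6.72% in dark. The summed level of the 5 markers in light after fertilization was 110 to 326 CPM in ∆ve-1 and 4273 to 31500 CPM in wild type, and in dark after fertilization 607 to 12070 CPM in ∆ve-1 and 892.5 to 22830 CPM in wild type. The marker pig-1 (NCU05821), annotated as a melanin pigment gene, had 0.386 to 3.97 CPM in ∆ve-1 and 179 to 365 CPM in wild type in light after fertilization, and it was the 1 marker listed at 0 in some library, in ∆ve-1 in dark before fertilization. The part of the perithecial mRNA in the strain differences was not tested.

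Among the 6 conidiation markers the hydrophobin gene eas was lower in wild type in light on day 1 than on day 0, as were al-1, al-2 and al-3, and it was singled out after its values had been seen. In ∆ve-1 in light it had 19810, 14520 and 17080 CPM on day 1 and 11170, 18350 and 14570 CPM on day 0, and in wild type in light 1789, 4872 and 2136 CPM on day 1 and 56870, 30110 and 67600 CPM on day 0. The sum of the 6 markers in light on day 0 was 67560, 44180 and 73170 CPM in wild type, most of it eas. In ∆ve-1 this sum was 72490, 64350 and 48050 CPM, most of it from other markers. Over the 42 light libraries, which share strains and days, Pearson's r with eas on the log2 scale was 0.901 for al-1, 0.923 for al-2 and 0.724 for al-3, and 0.472 for cao-2, 0.004 for ylo-1 and -0.174 for nop-1. In the same libraries r with vvd was 0.819 for al-1, 0.783 for al-2 and 0.387 for al-3, and r with fl was 0.594, 0.68 and 0.169 in the same order. Over the 42 dark libraries r with eas was 0.414 for al-1, 0.181 for al-2, 0.237 for al-3, 0.464 for cao-2, -0.411 for ylo-1 and 0.288 for nop-1. In the same order, r with vvd in dark was -0.233, -0.268, -0.315, 0.703, -0.786 and 0.848, and r with fl was 0.336, 0.234, 0.026, 0.834, -0.598 and 0.535. Over all 84 libraries r with eas was 0.671 for al-1, 0.663 for al-2 and 0.604 for al-3. The values with vvd were 0.803, 0.796 and 0.414 in the same order, so for al-1 and al-2 they were above those with eas. The markers con-8 and con-10 did not share the course of eas, with medians in wild type in light of 4740 CPM (con-8) and 4178 CPM (con-10) after fertilization and 4817 CPM (con-8) and 2066 CPM (con-10) before it. The dark libraries that stood apart, picked for their high al-1 and al-3, had eas levels of 22140 and 66000 CPM. In the other ∆ve-1 dark replicates of day -2 eas reached 24010 CPM, while al-3 was at most 136 CPM.

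**Figure D5:**
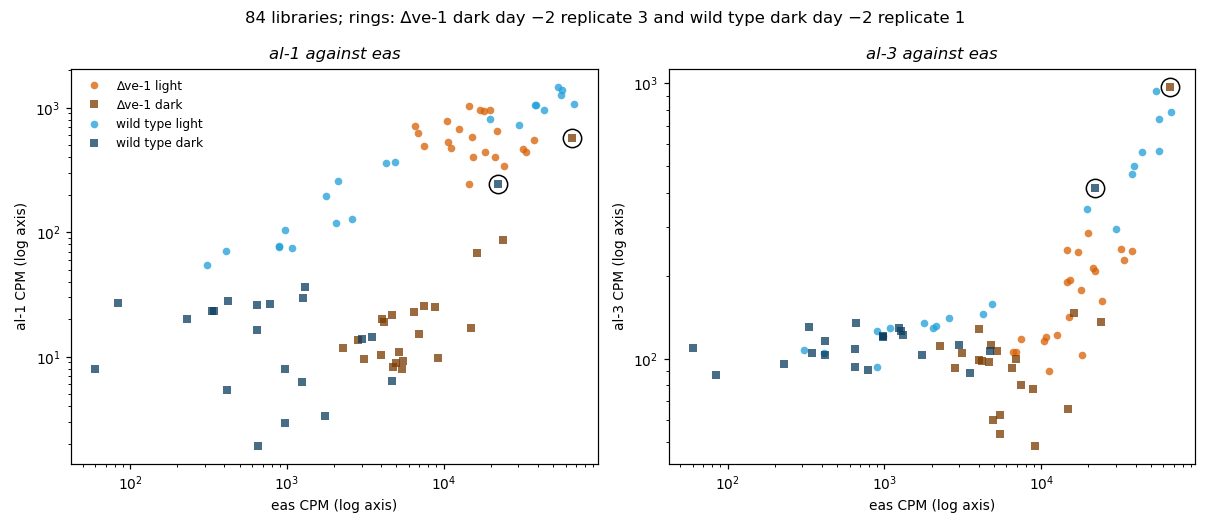
CPM of al-1 (left) and al-3 (right) against CPM of eas in the 84 libraries, both axes logarithmic, by strain and light. Rings mark ∆ve-1 dark day -2 replicate 3 and wild type dark day -2 replicate 1, which lie near the light libraries for al-3.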

How the data were processed

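The deposited values were raw counts of fragments per gene. The authors prepared stranded libraries from poly-A RNA, trimmed the paired reads (fastp), aligned them with STAR (version 2.7 in the submitters' processing notes) to assembly NC12 and assigned fragments to genes by strand with featureCounts. Per the labels, cultures were sampled on 7 days. The 6 genes and the gene lists were chosen with earlier results of these data known.

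Counts were analysed in R 4.3.3 with edgeR 4.0.16. Genes were filtered with filterByExpr, scaled by TMM and fitted with glmQLFit over all 28 groups without covariates. Contrasts averaged days with equal weight and were tested with glmQLFTest, with Benjamini-Hochberg adjustment over 9701 genes. Standard errors and 95% intervals were derived from the F statistic. Time courses were fitted as quadratics. Named genes were the 6 genes, ve-1, the listed genes and, for each of the 6, the 3 genes of highest r. All 10590 identifiers matched RefSeq, and list genes without a symbol there carry the name in the study's supplementary annotation. No 2 replicates of the same group agreed within sampling noise (lowest chi-square per degree of freedom 11.95). Alternatives were DESeq2 1.42.0, upper-quartile scaling, no filter, a replicate block, no fold criterion, leaving out each replicate number and, chosen after seeing the data, leaving out the libraries that stood apart. The script was tested on simulated data. Levels per kb used the whole gene span in place of exons. No promoter or protein sequence was used here.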

Additional observations from a re-analysis of the deposited data

Results flagged for a closer look

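Several effects differed between the strains by a test of the difference itself (edgeR's quasi-likelihood test, all genes adjusted together). The light effect was larger in ∆ve-1 than in wild type after fertilization for al-2 (log2 interaction 1.68), al-1 (1.51) and cao-2 (1.06). Without replicate 2 the al-1 value was 1.15 (adjusted p = 0.115) and the cao-2 value 0.9989, and neither was called. Before fertilization it was smaller in ∆ve-1 for al-1 (-1.41) and al-3 (-1.59). The al-1 call was lost without replicate 2 (-1.23, edgeR adjusted p = 0.149), and both calls were lost without replicate 3 (-0.34 for al-1 and -0.66 for al-3). Both calls were also lost without ∆ve-1 dark day -2 replicate 3 alone, and both were kept without both libraries that stood apart (-1.20 for each gene).

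The change of the strain difference from before to after fertilization, a contrast chosen after the levels were seen, was called in light for al-1 (3.84), al-2 (3.26), al-3 (1.99), cao-2 (1.31) and nop-1 (-1.01), and in dark for nop-1 (-1.14). Both nop-1 calls were lost without replicate 2, the one in light also without replicate 3 and with upper-quartile scaling, and the one in dark also without replicate 1. With 3 libraries a group, no group was large enough for the test of a single library far from the others.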

How the results depend on the processing

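Of 1320 fold changes of single genes recomputed under an alternative, 1215 kept direction and side of the thresholds, 23 lost the call, 48 gained it and 34 changed sign. The replicate numbers were not taken as pairs, since all 3 same-number correlations were over 0.1 in 5 of 28 group pairs (range -0.374 to 0.449, median 0.13). Libraries of different replicate number were not compared in this way, so a weak pairing was not tested. With a replicate block, al-1 in ∆ve-1 against wild type in dark before fertilization was -0.0246, and no count of genes called moved by over 1.5 times.

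Genes called without the fold criterion were 5 for light against dark in ∆ve-1 before fertilization, 4 before and 5 after fertilization for ∆ve-1 against wild type in dark, 4 for the interaction before fertilization, 1 and 3 for day 1 against day 0 in ∆ve-1 in light and wild type in dark, 2 for day 6 against day 1 in wild type in dark, 3 for the strain difference by stage in dark, and 20 of 42 gene-days for the strains in dark. The share of all tested genes that passed without the fold criterion was not counted, so these counts have no background beside them. Upper-quartile scaling gave 2 for day 6 against day 1 in wild type in dark, and DESeq2 gave 1 for day 1 against day 0 in ∆ve-1 in dark. Without both libraries that stood apart the counts were 2 and 1 for day 1 against day 0 in ∆ve-1 in light and in dark, 1 and 2 for day 6 against day 1 in ∆ve-1 and wild type in dark, and 3 for the strain difference by stage in dark.

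Leaving out 1 replicate number or 1 library gave ranges of 1 to 3 (∆ve-1 against wild type in dark after fertilization), 0 to 2 and 1 to 3 (interaction before and after fertilization), 0 to 1 (day 1 against day 0 in ∆ve-1 in light, in ∆ve-1 in dark and in wild type in dark), 0 to 1, 1 to 3 and 1 to 2 (day 6 against day 1 in ∆ve-1 in light, wild type in light and wild type in dark) and 0 to 3 (strain difference by stage in dark). The other counts that moved were 3 to 4 (light in ∆ve-1 before fertilization), 2 to 3 (light in wild type after it), 3 to 4 (strains in light after it) and 4 to 5 (strain difference by stage in light). Time courses, where only replicate numbers were left out, gave 3 to 5 for light in wild type and 4 to 5 for the strains in light. Of 42 gene-days, 20 to 25 and 19 to 25 were called for light in ∆ve-1 and wild type, and 19 to 26 and 9 to 14 for the strains in light and dark.

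Sign changes were of values that were not called. In ∆ve-1 against wild type in dark before fertilization, leaving out 1 replicate number or library gave -0.84 to 0.91 for al-1 and -0.92 to 0.52 for al-3, and leaving out both libraries gave -0.13 for al-1. The strain difference by stage in dark was -0.19 to 1.72 for al-1 and -0.69 to 0.79 for al-3, or 0.28 for al-3 without both libraries. For ylo-1 the ranges were -0.0039 to 0.10 (interaction after fertilization), -0.11 to 0.20, -0.10 to 0.0165 and -0.0245 to 0.0188 (day 1 against day 0 in ∆ve-1 in light, ∆ve-1 in dark and wild type in light) and -0.0526 to 0.0944 (day 6 against day 1 in ∆ve-1 in light). They were -0.25 to 0.34 for cao-2 and -0.0412 to 0.71 for nop-1 on day 1 against day 0 in ∆ve-1 in dark, -0.12 to 0.0895, -0.18 to 0.0905 and -0.39 to 0.0206 for cao-2 on day 6 against day 1 in ∆ve-1 in light, ∆ve-1 in dark and wild type in light, and -0.26 to 0.28 for nop-1 in ∆ve-1 in dark. In the day 6 against day 1 steps ylo-1 was -0.0049 in ∆ve-1 in light and -0.0235 in wild type in dark with upper-quartile scaling, and cao-2 in ∆ve-1 was 0.0065 in light and 0.0314 in dark with no filter, 0.0096 and 0.0313 without both libraries, and 0.031 in light with DESeq2. For ylo-1 in wild type in light, day 1 against day 0 was 0.0073 with no filter, 0.0059 without both libraries and 0.042 with DESeq2. The causes were not tested.

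Pooled tissue, 1 deletion strain and mixed cell types limit all comparisons, and al-1 in dark rests on few reads, with 30 counts in its lowest library.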
